A study of Arabidopsis thaliana with 16 samples.

Results

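The class IV chitinase genes of *Arabidopsis thaliana* were followed through the mRNA-seq libraries of 8 genotypes: the tandem genes AT2G43570, AT2G43580, AT2G43590, AT2G43600, AT2G43610 and AT2G43620, and their relatives AT3G47540 and AT3G54420 (*EP3*). These 8 loci were taken by identifier from the 33048 genes of the deposited table. All samples were whole 12-day-old seedlings in the Col-0 background, grown on sugar-containing medium with 16 h of light per day, and each genotype had 2 libraries. Col-0 was the wild type. T-DNA insertions hit a gene for a BAH-domain protein in *aipp3-1*, for a phosphatase of the RNA polymerase II tail in *cpl2-2* and for a PHD-finger protein in *aipp2-1*, while *paipp2-1* carries a CRISPR/Cas9 mutation in the closest paralog of *AIPP2*. The *aipp2-1/paipp2-1* line joins both PHD mutations, and the study groups these 4 proteins as the BPC complex. The *clf-81* line is mutated in a methyltransferase of the Polycomb repressive complex that deposits H3K27me3, and *lhp1-3* in a reader of that mark. Each gene was represented by 1 allele, the mutations are present in every tissue, and the labels do not say whether the libraries of a genotype came from separate cultures, so that p-values measure the spread between these libraries, which may be technical.

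Plant chitinases cut chitin, a polymer of N-acetylglucosamine that makes up fungal cell walls and that plants themselves do not produce. Class IV enzymes belong to glycoside hydrolase family 19 and usually join a chitin-binding domain to the catalytic domain in a secreted protein. Many chitinase genes are induced by pathogens, by salicylic acid or by ethylene, and some are also active during normal growth. *EP3* is named after a carrot chitinase that restores embryo development in a carrot cell line. AT2G43570 carries the symbol *CHI* and is often used as a transcript marker of defense, while the other members are annotated as chitinase family genes.

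The 6 tandem genes lie on chromosome 2 between 18076166 and 18095093 of the RefSeq TAIR10.1 assembly, a span of 18.928 kb. All of them are on the minus strand with 2 exons each, and the gaps between neighbours range from 726 to 4322 bp. AT3G47540 lies on chromosome 3 between 17520958 and 17522624, and *EP3* between 20145905 and 20148266, both on the plus strand. Over the aligned coding bases, AT3G47540 was 84.9% identical to AT2G43590 and 79.7% identical to AT2G43580. These alignments took in 635 and 639 of its 852 coding bases, against 758 to 845 aligned bases between array genes. On aligned bases alone, the unlinked AT3G47540 stood closer to these array genes than most array genes stood to each other. Its unaligned coding bases do not count in this measure. AT2G43580 and AT2G43590 shared 83.3%, AT2G43610 and AT2G43620 shared 81.8%, and AT2G43570 was the most isolated array gene, with 64.8% to 71.0% identity to the others. The longest stretch that any pair of spliced transcripts, untranslated parts included, shared without a mismatch was 36 bases, shorter than the 150-base reads.

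The 250 bases before the annotated start of 5 members are printed because these genes carry the contrasts described later: the 4 genes that were higher in *aipp2-1/paipp2-1* and AT2G43610, which was not. They are RefSeq TAIR10.1 sequence, 5′ to 3′ on the strand of the gene, and capitals mark the W-box core TTGAC, the element bound by WRKY transcription factors, or its complement GTCAA. The first 4 windows are at chr2:18077518-18077767, chr2:18095094-18095343, chr2:18082777-18083026 and chr3:17520708-17520957, and that of AT2G43610 at chr2:18089372-18089621.
AT2G43570: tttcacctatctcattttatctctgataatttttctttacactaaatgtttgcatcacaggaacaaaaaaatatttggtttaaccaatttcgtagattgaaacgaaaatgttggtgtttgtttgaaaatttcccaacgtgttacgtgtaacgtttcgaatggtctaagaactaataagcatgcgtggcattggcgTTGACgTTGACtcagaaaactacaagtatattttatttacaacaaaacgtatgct
AT2G43620: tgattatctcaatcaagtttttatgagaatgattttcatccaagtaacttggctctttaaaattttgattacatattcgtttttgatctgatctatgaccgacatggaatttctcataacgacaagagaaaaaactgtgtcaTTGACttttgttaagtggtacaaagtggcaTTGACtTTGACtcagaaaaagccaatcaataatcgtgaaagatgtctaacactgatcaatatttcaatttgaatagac
AT2G43590: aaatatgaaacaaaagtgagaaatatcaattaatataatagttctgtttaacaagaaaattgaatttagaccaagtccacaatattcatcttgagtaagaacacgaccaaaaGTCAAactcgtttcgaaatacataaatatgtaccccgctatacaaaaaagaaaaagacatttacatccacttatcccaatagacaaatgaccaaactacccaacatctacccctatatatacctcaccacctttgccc
AT3G47540: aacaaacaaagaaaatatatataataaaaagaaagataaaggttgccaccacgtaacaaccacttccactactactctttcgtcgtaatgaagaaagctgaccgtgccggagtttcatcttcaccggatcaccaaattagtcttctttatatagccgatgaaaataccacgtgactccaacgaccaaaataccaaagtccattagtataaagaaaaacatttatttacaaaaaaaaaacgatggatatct
AT2G43610: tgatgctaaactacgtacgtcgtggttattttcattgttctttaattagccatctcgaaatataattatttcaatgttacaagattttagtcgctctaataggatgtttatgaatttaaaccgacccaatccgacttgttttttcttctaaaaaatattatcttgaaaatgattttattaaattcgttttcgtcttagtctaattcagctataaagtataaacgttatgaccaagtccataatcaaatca

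The W-box core, searched on both strands, was present in the 250-base window of 5 of the 8 members and in 44.9% of 27443 such windows of annotated genes. AT2G43570 and AT2G43620 each held a pair of cores 1 base apart on the strand of the gene, written TTGACNTTGAC, whose first base lies 55 and 78 bases before the start. This paired element was found in 0.295% of all windows, and it was chosen after the sequences had been seen. In AT2G43570 the first core of the pair overlaps a TGACG element, which 18.6% of windows hold and which no other member held. The G-box CACGTG was found in AT3G47540 and AT2G43600 and in 6.49% of windows, while the telobox AAACCCTA (4.49% of windows) and the repeat GAGAGA (20.6%) were in no member's window.

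Expression is given as FPKM, fragments scaled to transcript length and library size, as the authors deposited it, so that levels can be set side by side between genes. The step between low FPKM values put the depth at 19200000 to 27100000 fragments per library, and 3 fragments corresponded to at most 0.164 FPKM for any member. The 2 libraries of a genotype correlated with Pearson's r of 0.987 to 0.992 across genes, except for *aipp2-1/paipp2-1* with 0.942. *AIPP3* fell to 5.99 and 4.84 FPKM in *aipp3-1* from 22.76 and 23.57 in Col-0, and *CPL2* to 6.01 and 6.12 in *cpl2-2* from 15.3 and 14.06. *AIPP2* was at 3.67 and 4.21 FPKM in *aipp2-1*, 1.38 and 1.36 in *aipp2-1/paipp2-1* and 5.24 and 5.44 in Col-0. Root markers were detected in every library and summed to 63.9 to 107 FPKM over 10 genes, and 6 photosynthetic genes summed to 1870 to 3190 FPKM. Only 4 of these photosynthetic genes reached 1 FPKM in at least 2 libraries. In such bulk material, fewer cells of a type and less RNA per cell cannot be told apart.

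In Col-0 the members spanned a wide range of levels. AT2G43590 was the most abundant at 74.78 and 71.32 FPKM, followed by AT2G43610 at 35.14 and 34.58. AT2G43620 was at 11.89 and 29.06 FPKM, AT2G43570 at 7.51 and 5.69, AT3G47540 at 4.41 and 4.95 and *EP3* at 1.97 and 1.83. AT2G43600 was near the lower end at 0.62 and 1.41 FPKM, and AT2G43580 at 0.09 and 0.19 FPKM was at the level of a few fragments. Neighbouring genes in the array thus differed by orders of magnitude in the same seedlings, with AT2G43580 almost silent next to the strongest member. Neighbours in this order did not overlap between the Col-0 libraries, though with 2 libraries this is a description.

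**Figure D1:**
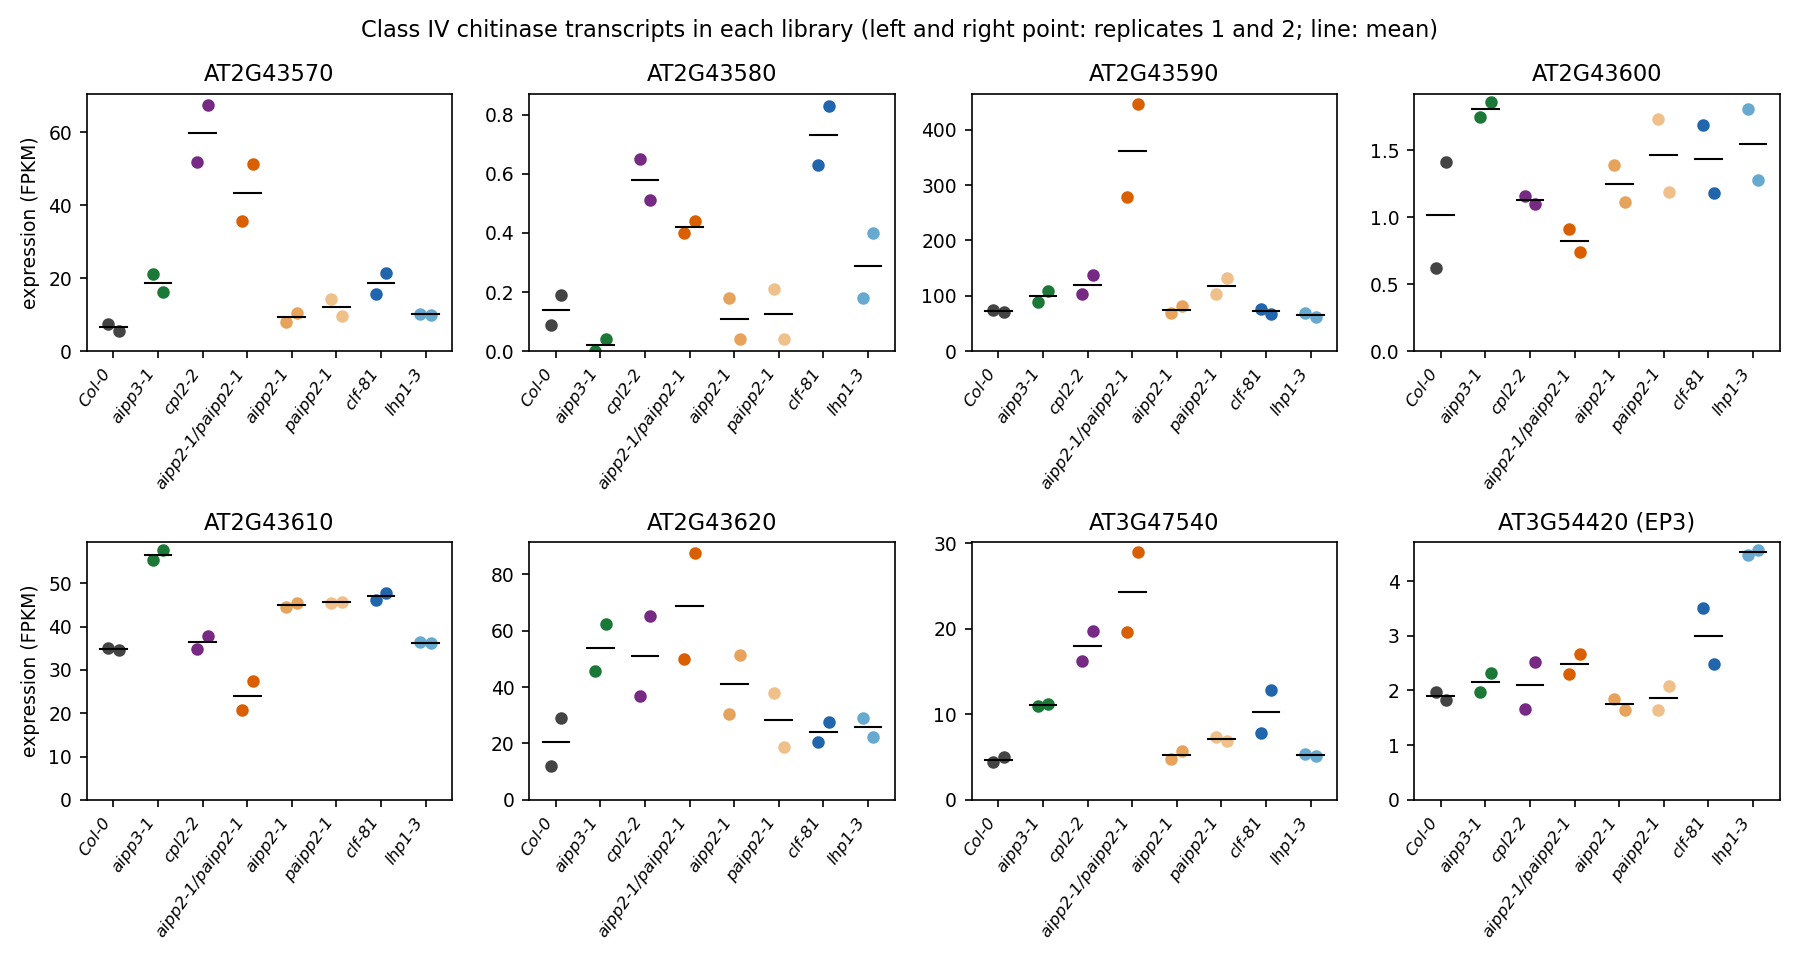
FPKM of the 8 members in each of the 16 libraries, by genotype (points: libraries, short lines: means of 2, vertical axes from 0 and scaled per gene). AT2G43570 and AT3G47540 are high in the same genotypes, AT2G43590 stands out at 277.67 and 445.88 FPKM in *aipp2-1/paipp2-1*, AT2G43610 is lowest there, and *EP3* is highest in *lhp1-3*.

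Changes were tested with limma, in 1 fit over the 16 libraries, as differences of log2(FPKM + 0.5). A call required a Benjamini-Hochberg adjusted p under 0.05 over the 19895 genes tested and at least a 2-fold change, and changes of low genes come out too small on this scale. Of the 8 members, 7 reached 1 FPKM in at least 2 libraries and were tested, and AT2G43580 was not. Both AT2G43570 and AT3G47540 belong to the list of genes that the study selected as raised in all 3 BPC mutants from these same libraries, so their rise there is not independent evidence. For AT2G43570 the study also reports a nuclear run-on assay, separate from these libraries, with higher transcription in BPC mutants than in the wild type. It reports no obvious change of H3K27me3 at this gene. The 7 comparisons with Col-0 share its 2 libraries.

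AT2G43570, the defense marker at the end of the array, had the largest rise of any member tested in *cpl2-2*, in *aipp2-1/paipp2-1* and in *clf-81*. It measured 51.98 and 67.57 FPKM in *cpl2-2*, 35.75 and 51.22 in *aipp2-1/paipp2-1* and 21.15 and 16.16 in *aipp3-1*, beside 7.51 and 5.69 in Col-0. Every library of these 3 mutants lay above both Col-0 libraries, and *cpl2-2* lay above the double mutant without overlap. The log2 fold changes were 3.09 in *cpl2-2* (SE 0.247, limma adjusted p = 5.6e-05), 2.62 in *aipp2-1/paipp2-1* (SE 0.247, limma adjusted p = 4.7e-05) and 1.43 in *aipp3-1* (SE 0.247, limma adjusted p = 0.0052), that is 8.49-fold, 6.15-fold and 2.7-fold. In *clf-81* the gene was at 15.77 and 21.42 FPKM, 2.68-fold above Col-0 (log2 1.42, SE 0.247, limma adjusted p = 0.0013). The *clf-81* and *aipp3-1* libraries interleaved, while *paipp2-1* at 14.37 and 9.69 FPKM, *lhp1-3* at 10.3 and 9.91 and *aipp2-1* at 8.08 and 10.51 formed a lower group whose libraries overlapped each other and lay above Col-0. None of these last 3 genotypes passed the test, with log2 differences of 0.81 (limma adjusted p = 0.22), 0.59 (0.13) and 0.46 (1.0). Without *aipp3-1* replicate 1, the rise in *aipp3-1* was 1.24 on the log2 scale with a limma adjusted p of 0.052, and was not called.

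AT3G47540, the unlinked relative on chromosome 3, had nearly the same profile at a lower level. Its libraries measured 19.62 and 28.91 FPKM in *aipp2-1/paipp2-1*, 16.17 and 19.77 in *cpl2-2*, 11.0 and 11.23 in *aipp3-1* and 4.41 and 4.95 in the wild type. All 6 mutant libraries exceeded both wild-type libraries and *cpl2-2* and the double mutant overlapped each other. The gene rose 4.7-fold in *aipp2-1/paipp2-1* (log2 2.23, SE 0.217, limma adjusted p = 5.6e-05), 3.55-fold in *cpl2-2* (log2 1.83, SE 0.217, limma adjusted p = 0.00066) and 2.25-fold in *aipp3-1* (log2 1.17, SE 0.217, limma adjusted p = 0.0074). In *clf-81* it was at 7.77 and 12.85 FPKM, 2.03-fold above Col-0 (log2 1.02, SE 0.217, limma adjusted p = 0.0045), just past the 2-fold limit. The other mutants were nearer to the wild type, with 7.29 and 6.84 FPKM in *paipp2-1*, 4.81 and 5.66 in *aipp2-1* and 5.38 and 5.11 in *lhp1-3*, none of them called. The call in *aipp3-1* was lost without *aipp3-1* replicate 2 (limma adjusted p = 0.054) or Col-0 replicate 1 (0.064), and that in *clf-81* without *clf-81* replicate 2 (log2 0.68, limma adjusted p = 0.054) or Col-0 replicate 1 (log2 0.95). An antisense gene, AT3G07775, covers 70 exon bases of AT3G47540 and had at most 0.09 FPKM in any library.

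AT2G43590, the most abundant member and the closest relative of AT3G47540 by coding sequence, behaved differently. It was at 277.67 and 445.88 FPKM in *aipp2-1/paipp2-1* against 74.78 and 71.32 in Col-0, a 4.79-fold rise (log2 2.26, SE 0.217, limma adjusted p = 5.1e-05). The other genotypes lay far below the double mutant, with 103.42 and 137.67 FPKM in *cpl2-2*, 103.8 and 133.13 in *paipp2-1* and 88.81 and 109.47 in *aipp3-1*. These 3 genotypes overlapped each other and were above Col-0 in every library, yet their log2 differences of 0.70 (limma adjusted p = 0.079), 0.68 (0.24) and 0.43 (0.26) were not called. In *aipp2-1*, *clf-81* and *lhp1-3* the gene was at 61.82 to 81.19 FPKM, a range that took in both Col-0 libraries. Seed storage transcripts, summed over 8 marker genes, also moved in these genotypes, at 106 and 222 FPKM in *aipp2-1/paipp2-1*, 53.1 and 10.3 in *paipp2-1*, 10.6 and 34.6 in *cpl2-2* and 4.22 and 11.4 in *aipp3-1*, against 1.16 and 0.63 in Col-0, where 2 of the 8 were at 0. Their part in the result was not tested.

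AT2G43620, at the other end of the array, varied more between libraries of a genotype than any other member tested. It was at 11.89 and 29.06 FPKM in Col-0, 50.01 and 87.69 in *aipp2-1/paipp2-1*, 45.59 and 62.37 in *aipp3-1* and 36.73 and 65.34 in *cpl2-2*. The libraries of these mutants were all above the wild type, and they overlapped each other. Only the double mutant passed the test, with a 3.49-fold rise (log2 1.80, SE 0.466, limma adjusted p = 0.017), while *aipp3-1* (log2 1.49, limma adjusted p = 0.068) and *cpl2-2* (log2 1.37, limma adjusted p = 0.11) did not. The low Col-0 replicate 1 decided this call. Without it the difference in *aipp2-1/paipp2-1* was 1.18 on the log2 scale with a limma adjusted p of 0.16, in a fit of these 2 genotypes alone the limma adjusted p was 0.17, and without Col-0 replicate 2 the difference in *aipp3-1* became 2.12 with a limma adjusted p of 0.041. With the double mutant out of the fit, an alternative added after seeing the data, the limma adjusted p for *aipp3-1* was 0.029. The values in *aipp2-1* were 30.55 and 51.3 FPKM, both above Col-0, and those in *paipp2-1* (37.79 and 18.63), *clf-81* (20.55 and 27.51) and *lhp1-3* (28.88 and 22.45) fell into or around the wild-type range.

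AT2G43610, which shares 81.8% of its aligned coding bases with AT2G43620, moved the other way in the double mutant. Its replicates were close in most genotypes, at 35.14 and 34.58 FPKM in Col-0 and 55.32 and 57.67 in *aipp3-1*. They were furthest apart in *aipp2-1/paipp2-1*, at 20.67 and 27.45. Thus *aipp3-1* was the highest genotype and the double mutant the lowest, with no overlap between any of these groups. The SE of 0.112 is pooled over all genotypes and may understate the spread of the double mutant. Against Col-0, the log2 differences of 0.69 in *aipp3-1* (SE 0.112, limma adjusted p = 0.0039), 0.42 in *clf-81* (46.08 and 47.84 FPKM, limma adjusted p = 0.015) and -0.54 in *aipp2-1/paipp2-1* (SE 0.112, limma adjusted p = 0.0058) all had adjusted p-values under 0.05 but were smaller than 2-fold, so none was called. The *aipp2-1* libraries at 44.62 and 45.36 FPKM and the *paipp2-1* libraries at 45.46 and 45.65 were above Col-0 by 0.36 and 0.38 on the log2 scale and were not called. In *cpl2-2* and *lhp1-3* the gene was at 34.81 to 37.93 FPKM, within 0.06 of Col-0 on the log2 scale. Root markers summed to 98.3 and 107 FPKM in *aipp3-1* and 75.5 and 71.2 in the double mutant, against 90.9 and 82.9 in Col-0, but also to 71.0 and 63.9 in *clf-81*, where AT2G43610 was above the wild type. In the double mutant 5 of the 10 root markers were above Col-0, their median log2 difference was 0.04, and 1 was called higher and 1 lower. Their part in the result was not tested.

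The remaining members were expressed at low levels. *EP3* was at 4.48 and 4.57 FPKM in *lhp1-3* and at 1.97 and 1.83 in Col-0, a 2.09-fold rise (log2 1.07, SE 0.194, limma adjusted p = 0.0032). Every other genotype lay below *lhp1-3* without overlap, *clf-81* being next at 3.5 and 2.49 FPKM (log2 0.53, limma adjusted p = 0.063), and *EP3* was the tested member whose highest level was in a Polycomb mutant. Floral transcripts, summed over 5 marker genes, were at 113 and 114 FPKM in *lhp1-3* and 151 and 143 in *clf-81*, against 2.69 and 3.93 in Col-0, and their part in the rise of *EP3* was not tested. Within the transcript of *EP3*, 1594 exon bases lie inside *SRS6* on the opposite strand and 59 inside AT3G54440. *SRS6* was listed at 0 in every library, and whether the counting used strand is not given in the sources used here. AT2G43600 was at 0.62 to 1.86 FPKM, or 12.7 to 46.8 fragments, over all libraries, with no change called. Its 2 Col-0 libraries spanned 0.62 to 1.41 FPKM, which took in the libraries of *cpl2-2*, *aipp2-1/paipp2-1* and *aipp2-1*.

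AT2G43580 was measured from 0 to 21.1 fragments per library, which leaves its values with a wide counting error. Its libraries measured 0.63 and 0.83 FPKM in *clf-81*, 0.65 and 0.51 in *cpl2-2*, 0.4 and 0.44 in the double mutant, 0.09 and 0.19 in the wild type and 0 and 0.04 in *aipp3-1*. The libraries of *cpl2-2*, the double mutant and *clf-81* were above Col-0, and those of *aipp3-1* were below the level of 3 fragments, 0.106 to 0.149 FPKM. In a fit of 26902 genes without the filter on low values, the log2 differences from Col-0 were 0.94 in *clf-81* (SE 0.18, limma adjusted p = 0.004), 0.76 in *cpl2-2* (SE 0.18, limma adjusted p = 0.039) and 0.53 in *aipp2-1/paipp2-1* (SE 0.18, limma adjusted p = 0.068), all under 2-fold on the scale used. A low chitinase between AT2G43570 and AT2G43590 was thus above the wild type in *clf-81*, where AT2G43590 was not.

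By comparison, 2 of the 7 members tested were called higher in *aipp3-1*, beside 3.14% of all genes tested, and 2 in *cpl2-2*, beside 2.71%. These were AT2G43570 and AT3G47540 in both mutants. In *aipp2-1/paipp2-1*, 4 members were called higher, beside 6.44% of all genes, as AT2G43590 and AT2G43620 joined this pair. No member was called in *aipp2-1*, where 0.00503% of genes were called, or in *paipp2-1*, where 0.131% were called higher. At an unadjusted limma p under 0.05, 2 members differed in *aipp2-1*, beside 3.65% of all genes, and 4 in *paipp2-1*, beside 10.6%. These members were above Col-0, as were 65.7% and 60.0% of all genes at that p. In *clf-81* the 2 members called were again AT2G43570 and AT3G47540, beside 5.98% of all genes, and in *lhp1-3* the 1 member called was *EP3*, beside 2.8%. No member was called lower than Col-0, beside 2.55% of genes in *clf-81*, 1.82% in *lhp1-3*, 1.28% in *aipp2-1/paipp2-1*, 0.332% in *cpl2-2*, 0.251% in *aipp3-1*, 0.0352% in *paipp2-1* and 0% in *aipp2-1*. The median log2 difference of the members tested was 1.80 in *aipp2-1/paipp2-1*, 0.70 in *cpl2-2*, 0.69 in *aipp3-1*, 0.50 in *paipp2-1*, 0.44 in *lhp1-3*, 0.42 in *clf-81* and 0.25 in *aipp2-1*, beside medians of -0.06 to 0.07 over all genes.

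**Figure D2:**
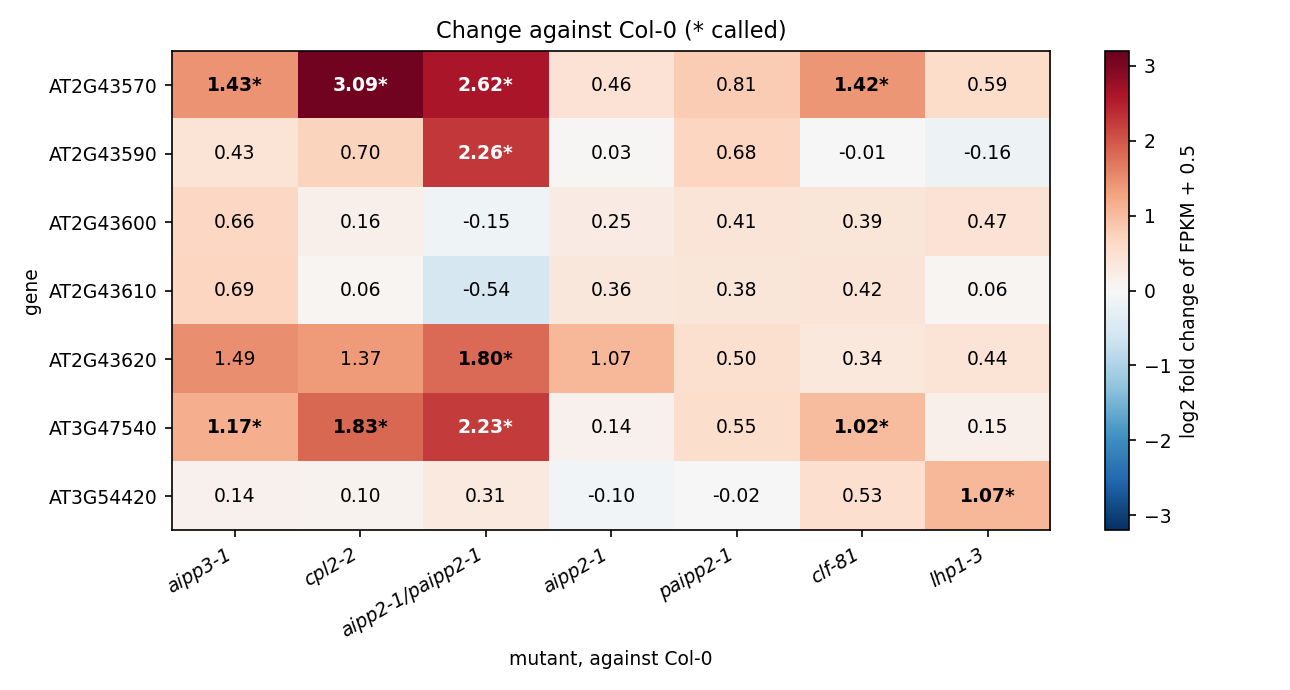
Log2 fold change against Col-0 of the 7 members tested (rows) in the 7 mutants (columns), on the log2(FPKM + 0.5) scale, with asterisks for called changes (limma adjusted p under 0.05 and at least 2-fold). The largest value is 3.09 for AT2G43570 in *cpl2-2*, and AT2G43590 is called in the double mutant, at 2.26.

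Because of these unequal changes, the make-up of the class IV chitinase transcripts differed between genotypes. The summed FPKM of the 8 members was 136 and 149 in Col-0, 407 and 645 in *aipp2-1/paipp2-1*, 247 and 332 in *cpl2-2* and 226 and 261 in *aipp3-1*. AT2G43590 made up 68.2% and 69.1% of this sum in the double mutant and 54.8% and 47.9% in Col-0, whereas AT2G43570 made up 21.1% and 20.3% in *cpl2-2* and 5.51% and 3.82% in Col-0. The sums in *clf-81* (173 and 182), *aipp2-1* (160 and 197) and *paipp2-1* (212 and 217) lay above Col-0 and those in *lhp1-3* (157 and 142) overlapped it. These percentages are shares of FPKM within a library, and no test was run on them.

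Direct comparisons between mutants were made to ask whether the members respond alike to the loss of different BPC subunits. Their fold changes use no Col-0 library, but their SE and p come from the fit over all 16 libraries, Col-0 included. AT2G43570 was 3.15-fold higher in *cpl2-2* than in *aipp3-1* (log2 1.65, SE 0.247, limma adjusted p = 0.0071), the 1 member called in this comparison, where 0.432% of genes were called higher and 0.764% lower. Without *aipp3-1* replicate 2 the limma adjusted p was 0.08. AT2G43610 was lower in *cpl2-2* than in *aipp3-1* by 0.63 on the log2 scale (limma adjusted p = 0.016), which is under 2-fold, and AT3G47540 had a log2 difference of 0.66 (95% interval 0.19 to 1.14, limma adjusted p = 0.15).

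Between *aipp2-1/paipp2-1* and *aipp3-1*, 3 members were called higher in the double mutant, beside 2.98% of genes, and 1 was called lower, beside 2.69%. AT2G43590 was 3.56-fold higher (log2 1.83, SE 0.217, limma adjusted p = 0.00057), AT2G43570 2.28-fold (log2 1.19, SE 0.247, limma adjusted p = 0.0071) and AT3G47540 2.09-fold (log2 1.07, SE 0.217, limma adjusted p = 0.0063). AT2G43610 was 2.34-fold lower (log2 -1.23, SE 0.112, limma adjusted p = 0.00013). Genes of one array on the same strand thus differed in opposite directions between these mutants. AT2G43570 and AT3G47540 fell under 2-fold without replicate 2 of the double mutant (log2 0.93 and 0.79), AT2G43570 also lost its call without *aipp3-1* replicate 2 (limma adjusted p = 0.076), and with the 4 libraries of these genotypes alone none of the 4 was called (limma adjusted p from 0.16 to 0.20).

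Against *cpl2-2*, the double mutant differed in AT2G43590, which was 2.94-fold higher (log2 1.56, SE 0.217, limma adjusted p = 0.0026), beside 2.26% of genes called higher, and no member was called lower, beside 1% of genes. With the 4 libraries of these genotypes alone it was not called (limma adjusted p = 0.30). AT2G43610 was lower by 0.60 on the log2 scale (limma adjusted p = 0.0097), under 2-fold. The difference in AT2G43570 was -0.47 (95% interval -1.01 to 0.08, limma adjusted p = 0.21), although its libraries did not overlap.

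The mean of the 3 BPC mutants was also set against the mean of *clf-81* and *lhp1-3*. In this comparison 4 members were called higher in the BPC mutants, beside 3.71% of genes, and none lower, beside 2.25%. They were AT2G43570 (log2 1.37, SE 0.16, limma adjusted p = 4.6e-05), AT2G43590 (log2 1.22, SE 0.14, limma adjusted p = 4.3e-05), AT3G47540 (log2 1.16, SE 0.14, limma adjusted p = 6e-05) and AT2G43620 (log2 1.16, SE 0.301, limma adjusted p = 0.0088). The means join unequal genotypes, since AT2G43590 stood at 277.67 and 445.88 FPKM in the double mutant and at 88.81 to 137.67 FPKM in *aipp3-1* and *cpl2-2*. *EP3* was on the Polycomb side by 0.61 on the log2 scale (limma adjusted p = 0.0022), under 2-fold. AT3G47540 fell to 0.98, just under 2-fold, without *clf-81* replicate 1.

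Whether the double mutant departs from the sum of both single mutants was tested with an interaction term, on the log2 scale. The interaction was called for 4 members, 3 of them positive, beside 2.41% of genes, and 1 negative, beside 0.779%. It was 1.55 for AT2G43590 (SE 0.307, limma adjusted p = 0.018), 1.54 for AT3G47540 (SE 0.306, limma adjusted p = 0.018) and -1.28 for AT2G43610 (SE 0.159, limma adjusted p = 0.0025). For AT2G43610, both single mutants were above Col-0 and the double mutant was below it. AT2G43570 had an interaction of 1.35 (SE 0.35) whose limma adjusted p of 0.05 was just under the threshold. It passed 0.05 under a block for replicate numbers (0.066), other scalings (0.053 and 0.067), other filters (0.053 and 0.074), a pseudocount of 0.1 (0.057) and eBayes without a trend (0.063). In a fit of only these 4 genotypes none of the 4 interactions was called (limma adjusted p from 0.093 to 0.19). The interaction of AT2G43570 also lost its call without either Col-0 library, either *aipp2-1* library or *paipp2-1* replicate 2 (limma adjusted p from 0.079 to 0.19). That of AT2G43590 lost its call without Col-0 replicate 1 (limma adjusted p = 0.054), Col-0 replicate 2 (0.06), *aipp2-1* replicate 1 (0.084) or *paipp2-1* replicate 1 (0.064), and that of AT3G47540 without Col-0 replicate 2 (0.071), *aipp2-1* replicate 1 (0.083) or *paipp2-1* replicate 2 (0.082). The *AIPP2* transcript stood at 3.67 and 4.21 FPKM in *aipp2-1* but 1.38 and 1.36 in the double mutant, so that the single mutant and the double mutant differed in the level of the mutated transcript itself.

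**Figure D3:**
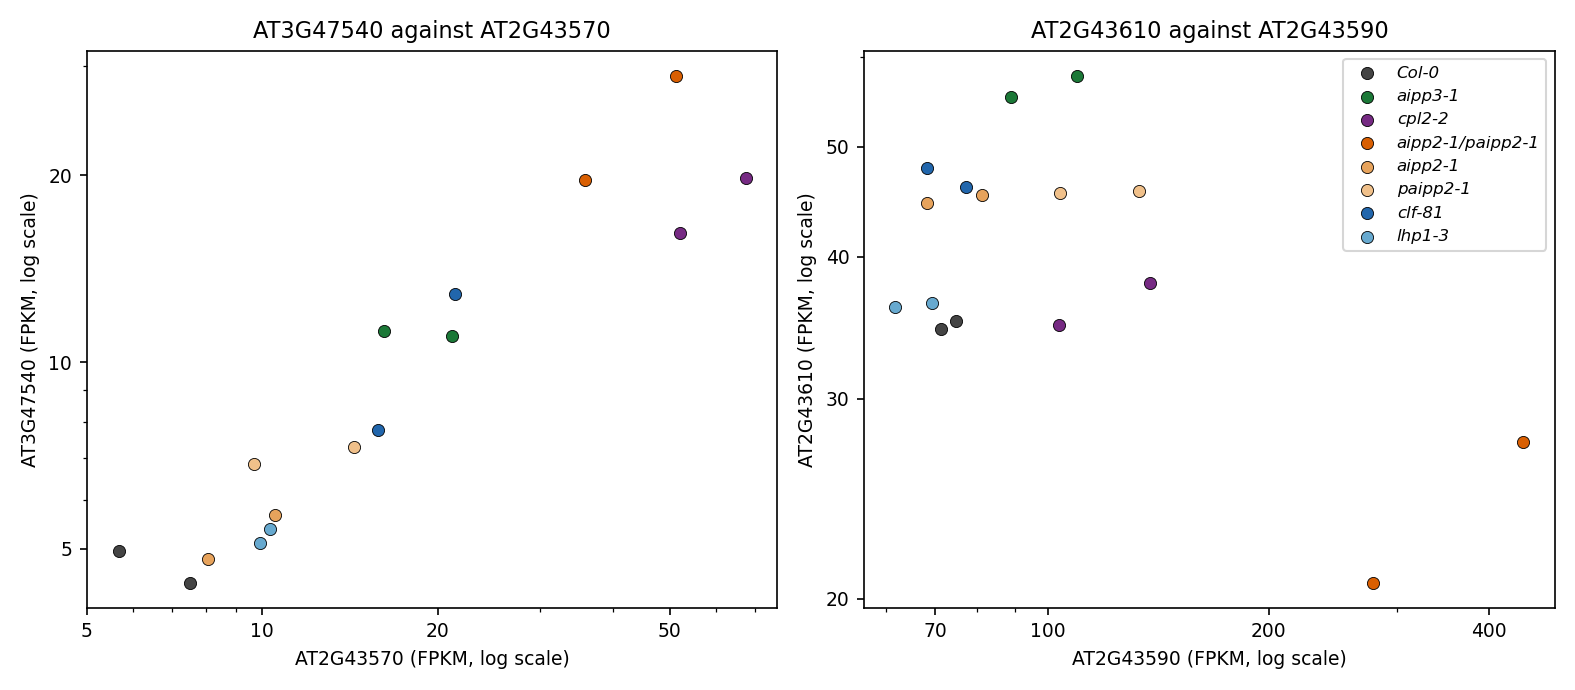
FPKM of member pairs in the 16 libraries, both axes on a log scale and points coloured by genotype. AT3G47540 follows AT2G43570 from Col-0 up to *cpl2-2* and *aipp2-1/paipp2-1*, whereas AT2G43610 is lowest, at 20.67 and 27.45 FPKM, in the double mutant, where AT2G43590 is highest.

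Over the 16 libraries and on the log2(FPKM + 0.5) scale, AT3G47540 had the third highest correlation with AT2G43570 among the 19895 genes (Pearson's r 0.947). Ahead of it were AT3G23510 with 0.958 and AT5G52720 with 0.954, and *FQR1*, a quinone reductase gene, with 0.938 and *BGLU17*, a beta-glucosidase gene, with 0.928 came next. Within the array the values were lower, at 0.659 for AT2G43590 and 0.656 for AT2G43620, and AT2G43600 and AT2G43610 had -0.253 and -0.319. The libraries are pairs from 8 genotypes, so these values describe a shared genotype profile and carry no test. AT2G43580, the member next to AT2G43570, was not tested and has no value here. Among the members compared, nearness in the genome did not order them by likeness to AT2G43570, since the member most like it was on another chromosome.

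The genes on either side of the array were examined to see whether the changes of AT2G43570 extended past it. Of the 10 genes taken, 5 on each side, 7 were tested, and the array's immediate neighbours *FKBP16-3* (AT2G43560), an immunophilin gene, and AT2G43630 were called in no mutant. Further out on the side of AT2G43570 lies *ATTI4* (AT2G43535), a trypsin inhibitor gene. From 21.49 and 27.58 FPKM in the wild type it went to 110.93 and 117.82 in *clf-81*, 100.3 and 104.24 in *aipp3-1*, 65.52 and 59.37 in *lhp1-3* and 42.55 and 59.12 in *cpl2-2*, above Col-0 in every one of these libraries. It was called in all of these mutants, with log2 fold changes of 2.21 (*clf-81*, limma adjusted p = 2.1e-06), 2.05 (*aipp3-1*, 4.5e-05), 1.34 (*lhp1-3*, 0.00015) and 1.03 (*cpl2-2*, 0.0023). Its relative *ATTI6* (AT2G43550) went from 36.03 and 34.38 FPKM in the wild type to 184.09 and 227.22 in *clf-81* and to 104.08 and 110.35 for *lhp1-3*, and was called in these Polycomb mutants and in no other, with log2 fold changes of 2.52 (limma adjusted p = 1.2e-05) and 1.59 (limma adjusted p = 0.00065). Between *ATTI6* and AT2G43570 lies *FKBP16-3*, at 52.13 to 127.41 FPKM in all libraries. These trypsin inhibitor genes beside the array were thus highest in *clf-81*, and the nearest chitinase, AT2G43570, in *cpl2-2*.

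**Figure D4:**
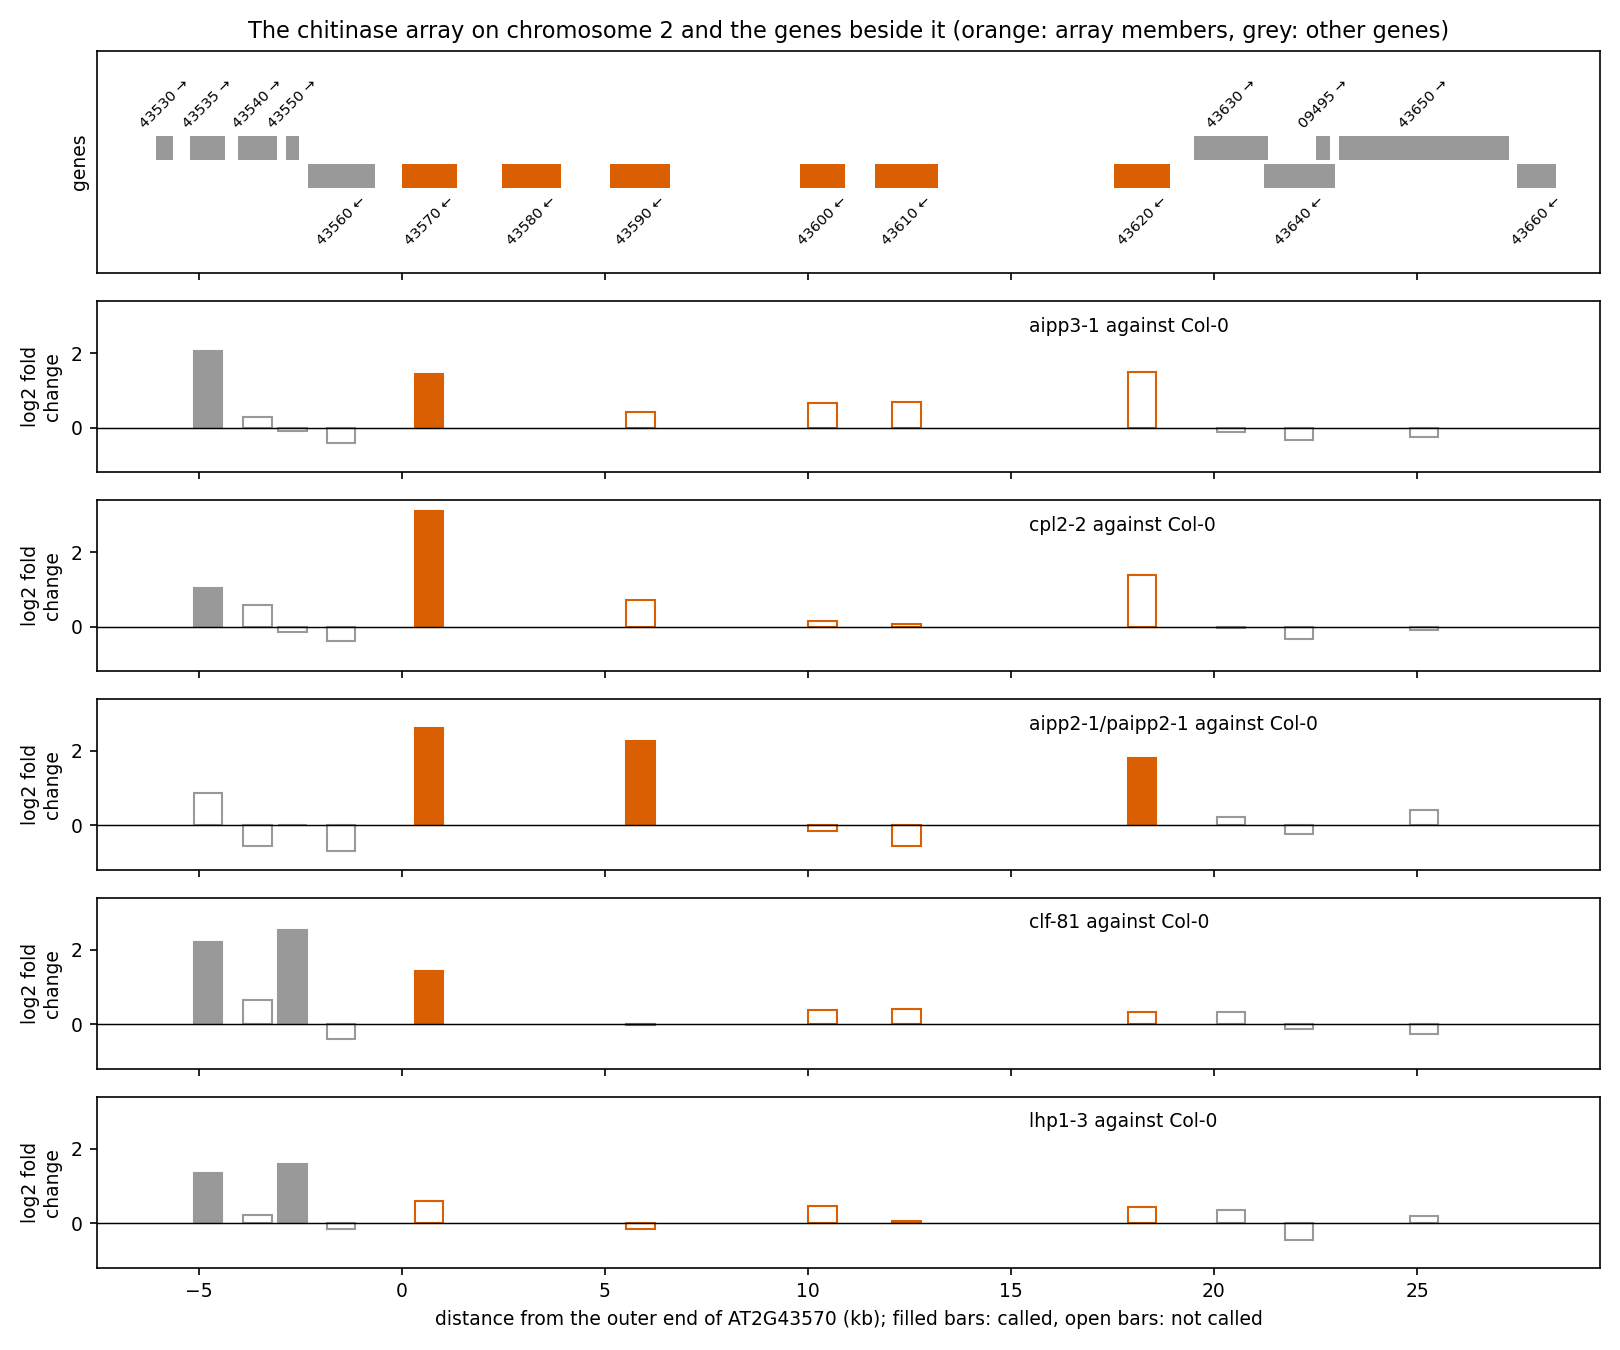
Map of the array and its flanking genes by distance from the outer end of AT2G43570 in kb (upper boxes: plus strand, lower boxes: minus strand, labels: locus numbers without AT2G), above their log2 fold changes in 5 mutants (filled bars: called). In the double mutant, the called members are separated by AT2G43580, which was not tested and has no bar, and by AT2G43600 and AT2G43610, which were not called. The 2 flanking genes called in *clf-81* and *lhp1-3* lie beyond *FKBP16-3*.

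Few of the other chitinase genes were called. Of 6 further family 19 genes, all tested, 1 was called: *HCHIB* (AT3G12500), a basic vacuolar chitinase also known as PR3, at 55.06 and 51.33 FPKM in *aipp3-1* and 21.39 and 30.08 in Col-0 (log2 1.05, SE 0.198, limma adjusted p = 0.0081). Of 10 family 18 genes, which have an unrelated catalytic fold, 4 were tested. *CHIA* (AT5G24090), an acidic chitinase, was at 9.92 and 10.67 FPKM in *lhp1-3* and 5.07 and 4.48 in Col-0 (log2 1.03, SE 0.234, limma adjusted p = 0.011), and AT4G19820 was at 0.85 and 0.5 FPKM in *clf-81* and 2.79 and 2.2 in Col-0 (log2 -1.36, SE 0.224, limma adjusted p = 0.00094). None of the genes tested, 6 of family 19 and 4 of family 18, was called in *cpl2-2* or *aipp2-1/paipp2-1*. Over all genes, 2.71% were called higher and 0.332% lower in *cpl2-2*, and 6.44% and 1.28% in the double mutant. At these shares, no call among so few genes is unremarkable. In *cpl2-2*, AT1G02360 (log2 0.97, limma adjusted p = 0.02), *HCHIB* (0.81, 0.031), AT1G05850 (-0.39, 0.027) and AT4G19820 (-0.97, 0.023) passed the adjusted p but changed by less than 2-fold. In *cpl2-2* the median log2 difference was 0.44 over the family 19 genes tested and -0.08 over the family 18 genes, beside 0.70 over the class IV members. In the double mutant, AT1G05850 (-0.59, limma adjusted p = 0.0012), AT3G16920 (-0.67, 0.0096), AT4G01700 (0.83, 0.034) and AT4G19820 (-0.74, 0.034) passed the adjusted p at less than 2-fold. The medians there were 0.05 over family 19 and 0.1 over family 18, beside 1.80 over the class IV members.

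Genes for chitin perception and signalling were taken as a list of 9, all tested, chosen with earlier results of these data known. Over all genes, 6.44% were called higher in *aipp2-1/paipp2-1*, 3.14% in *aipp3-1*, 2.71% in *cpl2-2* and 5.98% in *clf-81*. The shares were 2.8% in *lhp1-3*, 0.00503% in *aipp2-1* and 0.131% in *paipp2-1*. In *aipp2-1/paipp2-1*, 5 were called higher: the receptor genes *LYK5* (log2 2.05, limma adjusted p = 0.0008) and *LYK4* (log2 1.18, limma adjusted p = 0.017), *LYM2* (log2 1.17, limma adjusted p = 0.0033), the kinase gene *MPK3* (log2 1.84, limma adjusted p = 0.0044) and the transcription factor gene *WRKY33* (log2 2.72, limma adjusted p = 0.0013). The double mutant's replicates were far apart for these genes. *WRKY33* was at 151.55 and 58.61 FPKM and *MPK3* at 120.55 and 39.06, while AT2G43590 was at 277.67 and 445.88. In *aipp3-1* the list had 1 call, *WRKY33* (97.72 and 36.91 FPKM against 13.14 and 14.65, log2 2.08, limma adjusted p = 0.015). In *cpl2-2*, where AT2G43570 was highest, *WRKY33* was at 31.27 and 30.53 FPKM, both above Col-0, but was not called (log2 1.13, SE 0.44, limma adjusted p = 0.17). The 1 call there was *LYK5* (log2 1.19, limma adjusted p = 0.037). In *clf-81* both *LYK5* (log2 1.15, limma adjusted p = 0.015) and *WRKY33* (log2 1.49, limma adjusted p = 0.025) were called, and in *lhp1-3*, *aipp2-1* and *paipp2-1* none of the 9 was.

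Other pathogenesis-related genes were called in the mutants in which AT2G43570 was called. Of 7 listed, 6 were tested, and this list too was chosen with earlier results of these data known. Called higher were 5 in *aipp2-1/paipp2-1* (6.44% of all genes), 5 in *cpl2-2* (2.71%), 2 in *aipp3-1* (3.14%) and 3 in *clf-81* (5.98%). *PR1*, a marker of the salicylic acid response, had log2 fold changes of 4.84 in the double mutant (limma adjusted p = 0.00043), 4.03 in *cpl2-2* (limma adjusted p = 0.0035) and 2.46 in *clf-81* (limma adjusted p = 0.015). The glucanase gene *BG3* had 4.43 (limma adjusted p = 0.00022), 3.23 (0.004) and, in *aipp3-1*, 2.97 (0.0064), and *PR5* had 2.33 (0.00089), 2.62 (0.0013) and 1.39 (0.03) in the same order of mutants. *PR2*, another glucanase gene, rose in the double mutant (log2 2.27, limma adjusted p = 0.013) and *cpl2-2* (log2 2.37, limma adjusted p = 0.025) and fell by 3.65 on the log2 scale in *lhp1-3* (limma adjusted p = 0.0011), where AT2G43570 did not fall. The Col-0 libraries were uneven for *PR1* (14.36 and 28.04 FPKM), *PR2* (18.24 and 33.37) and *PR5* (10.85 and 24.88), replicate 1 being the lower. Each library of *cpl2-2* and the double mutant was above both for these genes. The chitin-binding protein gene *PR4* was called in *cpl2-2* (log2 1.59, limma adjusted p = 0.048) and *clf-81* (log2 1.65, limma adjusted p = 0.014), and the defensin gene *PDF1.2A*, a jasmonate and ethylene marker, in the double mutant (log2 3.06, limma adjusted p = 0.0028) and *clf-81* (log2 1.92, limma adjusted p = 0.024).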

How the data were processed

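Libraries of polyadenylated RNA from 12-day-old seedlings were sequenced as 150-base read pairs. After trimming with SeqPrep and Sickle, the authors derived the FPKM values they deposited, for 33048 genes and 16 libraries. The submitters' processing notes list TopHat, Bowtie, RSEM and edgeR without versions or roles, and the genome build of the mRNA-seq is not given in the sources used here. Gene positions and promoters come from RefSeq TAIR10.1, matched by locus identifier for 32548 of the genes. Columns were assigned to genotypes by their labels.

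Depth was computed from the steps of low FPKM values and transcript lengths, and floors of 3 fragments reflect counting error alone. For the test, limma 3.58.1 (R 4.3.3) was fitted to log2(FPKM + 0.5) by lmFit and eBayes with a trend and 8 residual degrees of freedom, over the 19895 genes that reached 1 FPKM in 2 or more libraries. Python 3.11.15 with pandas 2.3.3, Biopython 1.88 and matplotlib 3.10.9 was used. Members and lists were chosen with earlier results of these data known. All 8 members are named, and genes of the lists and of the flanks where called in a comparison with Col-0. For AT2G43570 the 5 most correlated genes are named.

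Replicate numbers come from the labels, which do not say that they mark a shared batch, and the correlation of same-numbered deviations between a mutant and Col-0 was -0.218 to 0.0588. The block was therefore an alternative, beside other pseudocounts, filters, scalings, fits of fewer genotypes, eBayes without a trend and each library left out in turn. The ChIP-seq data were not analysed here.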

Additional observations from a re-analysis of the deposited data

Results flagged for a closer look

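The *aipp2-1/paipp2-1* line differed from the sum of both single mutant lines for 4 members, by the interaction term of the limma fit over all genes. It was positive for AT2G43570 (1.35 on the log2 scale), AT2G43590 (1.55) and AT3G47540 (1.54) and negative for AT2G43610 (-1.28). In *aipp2-1/paipp2-1* both libraries were above both Col-0 libraries for the first 3 genes and below both for AT2G43610. The call of AT2G43570 was at the threshold, and in a fit of the 4 genotypes alone none of these interactions was called. The *AIPP2* transcript was below Col-0 by 0.40 on the log2 scale in *aipp2-1* and by 1.64 in the double mutant. The term therefore compares these lines and cannot be read as the joint effect of equal losses.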

How the results depend on the processing

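Of the 25 called changes of members, 336 of 378 alternative values kept their call, 42 lost it and 0 turned direction. Counted by change, 16 of the 25 lost their call under at least 1 alternative. With only the genotypes compared in the fit, the 4 members called between *aipp2-1/paipp2-1* and *aipp3-1*, the 1 between the double mutant and *cpl2-2* and the 4 interactions all became 0, a fit with fewer samples. With a pseudocount of 1, the members called fell from 2 to 1 in *clf-81*, where AT3G47540 had a log2 fold change of 0.96, and from 1 to 0 in *lhp1-3*, where *EP3* had 0.93. Without a filter on low values the count for *cpl2-2* against *aipp3-1* rose from 1 to 2 with AT2G43580. Leaving out 1 library at a time gave 1 to 3 members called in *aipp3-1*, 1 to 2 in *clf-81*, 0 to 1 for *cpl2-2* against *aipp3-1*, 2 to 4 for the double mutant against *aipp3-1* and 1 to 4 interactions. The replicate block changed 1 count, the interactions, from 4 to 3. Both other scalings, both other filters, a pseudocount of 0.1 and eBayes without a trend also gave 3 interactions, AT2G43570 being lost in each. Its limma adjusted p-values were 0.053 to 0.074 over these and the block. A block with the replicate numbers crossed was added after seeing the data. It was run for *aipp3-1*, *cpl2-2*, *paipp2-1* and *lhp1-3* against Col-0, where it gave the same counts as the block, and not for the interactions.

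Values that changed sign were uncalled, at most 0.5 in size on the log2 scale with all libraries. Median-ratio scaling gave log2 differences for AT2G43590 of -0.019 in *aipp2-1* and 0.056 in *clf-81*, and quantile normalization -0.014 for AT2G43600 in *cpl2-2* and -0.076 and -0.050 for *EP3* in *aipp3-1* and *cpl2-2*. Without 1 library, log2 differences from Col-0 ranged from -0.094 to 0.152 in *aipp2-1* and from -0.099 to 0.077 in *clf-81* for AT2G43590, and for AT2G43600 from -0.131 to 0.639 in *aipp2-1*, -0.531 to 0.24 in the double mutant and -0.229 to 0.541 in *cpl2-2*. They ranged from -0.002 to 0.12 for AT2G43610 in *cpl2-2*, for AT2G43620 from -0.284 to 0.971 in *clf-81*, -0.187 to 1.067 in *lhp1-3* and -0.127 to 1.127 in *paipp2-1*, and for *EP3* from -0.145 to 0.337 in *cpl2-2* and -0.158 to 0.111 in *paipp2-1*. The cause was not tested. With 2 libraries a genotype, the spread is borrowed from all genotypes, and the 12.7 to 46.8 fragments of AT2G43600 and the 0 to 21.1 of AT2G43580 limit what can be seen in them.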
